A study of Mus musculus with 6 samples.

Results

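Genes of T cells, NK cells and cytotoxic lymphocytes were examined in visceral adipose tissue of WT mice and mice labelled NM1 KO. The set holds 36 genes listed by name for their function, out of 46603 gene identifiers in the deposited counts, and all 36 were matched by symbol. Of these, 34 had enough counts to be tested, and Gzmk and Ncr1 were too low. NM1 is nuclear myosin 1, an isoform encoded by Myo1c that acts with RNA polymerases in the nucleus. All mice were of the C57/Bl6 strain, aged 18 months and untreated, with 3 libraries of each genotype; the labels name neither the knockout allele, the sex nor whether each library came from a separate mouse, so p-values measure the spread between these libraries. Each library was made from total RNA of a small piece taken at the tip of the abdominal fat.

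T cells recognise antigen through a receptor of variable alpha and beta chains held in the membrane by the CD3 chains, which pass the signal to the kinases Lck and Zap70 and the adaptor Lat. CD4 and CD8 are the co-receptors of helper and cytotoxic T cells, and CD28, ICOS, CTLA-4 and PD-1 raise or lower the response. Cytotoxic T cells and NK cells kill by releasing perforin and granzymes. Visceral fat holds resident T cells, regulatory T cells, gamma-delta T cells and NK cells, which are known to change in number with age and obesity.

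Library totals lay between 24677758 and 33537818 counts, and 20904 to 21996 genes had a count. Levels are given as CPM, counts relative to library size after TMM scaling, in the order of replicates 1, 2 and 3. Counts of Myo1c, which take in every isoform of the gene and so check the label only in part, gave 801, 759 and 801 CPM in WT and 452, 697 and 551 CPM in NM1 KO (log2 fold change -0.47 ± 0.17 (SE), adjusted p = 0.151 by edgeR's quasi-likelihood test with Benjamini-Hochberg adjustment). All 3 NM1 KO libraries lay below all WT libraries, with replicate 2 nearest to WT. The 10 adipocyte markers summed to between 21039 and 25660 CPM in every library, so the labelled tissue was visible in all 6. Across all 15828 genes tested, 441 rose in NM1 KO and 232 fell at an adjusted p under 0.05, the threshold for a call throughout.

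The lymphocyte genes were lowly expressed in all 6 libraries, and they were high in 2 of the 3 NM1 KO libraries. Together the 36 genes summed to 82.7, 88.2 and 79.0 CPM in WT and to 210, 74.3 and 170 CPM in NM1 KO. Replicates 1 and 3 of NM1 KO thus lay above every WT library, and replicate 2 lay below every WT library. In bulk tissue, a different number of cells and a different amount of RNA per cell cannot be told apart. Among the 34 tested genes, 29 were above the highest WT library in NM1 KO replicate 1 (background among all tested genes 35.8%) and 27 in replicate 3 (31.3%), against 8 in replicate 2 (30.4%). In replicate 2, 13 of the 34 lay below the lowest WT library (30.6%). It was the lowest of the 3 NM1 KO libraries in 31 of the 36 genes, a count without a share over all genes beside it.

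Of the 34 genes tested, 1 rose in NM1 KO, Il7r (background 2.79%), and 0 fell (1.47%). At an unadjusted p under 0.05, 8 were higher, namely Trbc2, Cd4, Cd8a, Cd28, Il7r, Tcf7, Eomes and Prf1 (13.0%), and 0 were lower (10.8%). All 3 NM1 KO libraries lay above all 3 WT libraries for 6 tested genes, Cd6, Cd28, Il7r, Tcf7, Eomes and Prf1 (14.9%), and below them for 0 (15.0%). The log2 fold change was above 0 for 31 of 34 (49.7%). Its median was 0.78 over the 34 genes that passed the filter and -0.0021 over all genes tested. With no filter on low counts it was 0.86 over all 36 genes and -0.00053 over all 26398 genes with a count. The 36 genes were chosen with earlier results of these data known, so these counts and medians are a description.

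The number of calls changed with the libraries and settings used, in both directions. The single call went to 0 without NM1 KO replicate 3, without any one WT library, with RLE or total scaling, with every gene kept regardless of counts and with a replicate block. Without NM1 KO replicate 2, 11 of the 36 genes passed the test (7.26% of all genes then tested), namely Trbc2, Cd4, Cd8a, Lck, Il7r, Il2rb, Eomes, Prf1, Nkg7, Gzmk and Ncr1; Gzmk and Ncr1 are below the filter's level in every WT library and entered this fit only through the NM1 KO libraries, so they had to differ. DESeq2 on all 6 libraries called 8 of 36 higher (7.36%), namely Trbc2, Cd4, Cd28, Il7r, Tcf7, Eomes, Prf1 and Gzmk, the last with the same limit. Limma-voom with quality weights called Il7r, Tcf7 and Prf1 (6.10%).

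**Figure D1:**
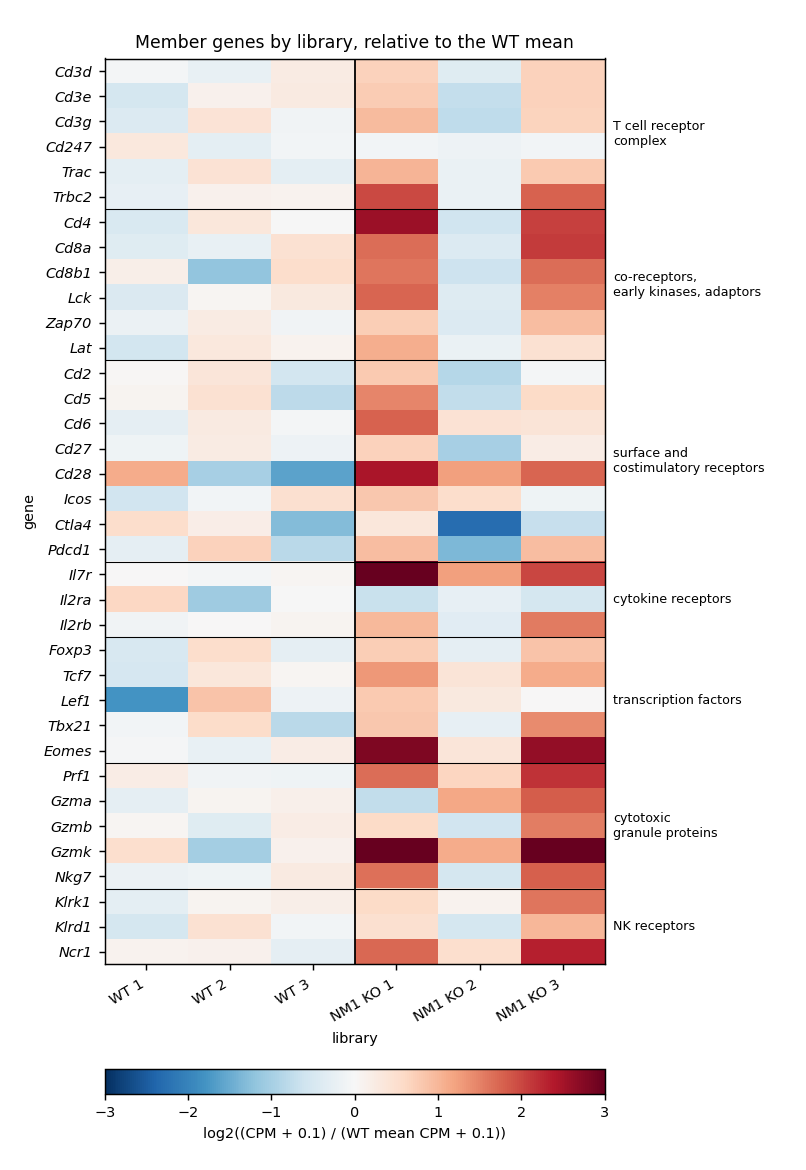
Levels of the 36 genes in each library (columns), grouped by role (rows), as the log2 ratio of CPM + 0.1 to the WT mean CPM + 0.1; the colour scale ends at 3 in either direction, and values of Il7r and Gzmk beyond it are drawn at its end. NM1 KO replicates 1 and 3 are red in most rows, and replicate 2 is pale or blue in most.

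The sequences before the RefSeq start sites of 4 genes are shown first: Il7r, the called gene, Eomes and Prf1, the genes with the next lowest p, and Cd3e, the marker of T cells. They come from RefSeq (GRCm38.p6), which gave 35 start windows for 26 of the 36 genes. Each is read 5′ to 3′ on the gene's strand, covers up to 250 bases before the RefSeq start, and leaves out bases that the GENCODE M21 annotation places in an exon. Capitals mark matches, on either strand, to the core letters of ETS factors (AGGAAG or CTTCCT), RUNX factors (TGTGGT or ACCACA), T-box factors (GGTGTG or CACACC) and GATA factors (AGATAA or TTATCT).
Il7r is shown at chr15:9529877-9530040, minus strand; GENCODE M21 starts the gene farther upstream than RefSeq, so by that annotation this stretch lies inside the gene, in no exon.
Il7r: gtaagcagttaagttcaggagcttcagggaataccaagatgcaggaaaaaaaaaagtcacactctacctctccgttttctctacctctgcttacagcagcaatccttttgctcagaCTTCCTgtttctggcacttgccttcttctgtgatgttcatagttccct
Eomes is shown at chr9:118477939-118478188, plus strand.
Eomes: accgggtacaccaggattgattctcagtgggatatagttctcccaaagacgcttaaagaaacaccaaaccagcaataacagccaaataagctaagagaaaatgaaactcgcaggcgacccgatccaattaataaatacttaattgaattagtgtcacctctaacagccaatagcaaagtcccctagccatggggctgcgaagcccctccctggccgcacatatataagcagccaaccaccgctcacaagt
Prf1 is shown at chr10:61297586-61297832, plus strand.
Prf1: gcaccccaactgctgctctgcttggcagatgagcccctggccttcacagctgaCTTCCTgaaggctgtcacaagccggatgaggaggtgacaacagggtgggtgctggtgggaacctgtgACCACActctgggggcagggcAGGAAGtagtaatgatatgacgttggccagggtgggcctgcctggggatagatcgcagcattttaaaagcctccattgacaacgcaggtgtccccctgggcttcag
Cd3e is shown at chr9:45009628-45009861, minus strand.
Cd3e: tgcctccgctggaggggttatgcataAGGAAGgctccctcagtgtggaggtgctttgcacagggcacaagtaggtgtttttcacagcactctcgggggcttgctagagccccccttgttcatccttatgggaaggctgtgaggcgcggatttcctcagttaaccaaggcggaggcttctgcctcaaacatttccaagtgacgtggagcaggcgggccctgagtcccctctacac

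The Il7r window holds 1 ETS core, 43 to 48 bases before the RefSeq start. Prf1 holds 2 ETS cores, 192 to 197 and 104 to 109 bases before the start, and 1 RUNX core 125 to 130 bases before it. Cd3e holds an ETS core 219 to 224 bases before the start, and another, 12 to 17 bases before it, runs into the annotated exon and is not shown. Eomes, a T-box factor itself, holds 0 matches in its window. Over whole 250-base windows, some of which overlap exons, the ETS core was found in 18 of 35 (51.4%) against 29.5% of 32851 RefSeq windows. The RUNX core was found in 9 of 35 (25.7%) against 14.0%, the T-box core in 7 (20.0%) against 16.3%, and the GATA core in 2 (5.71%) against 9.99%. All 35 windows were kept. For only 24 of them did the last 25 bases of the RefSeq sequence, past the start, lie in a GENCODE M21 transcript of the gene. Several genes have more than 1 window, so windows are not independent. Matches to different factors can share bases, and a match describes letters only.

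Il7r encodes the alpha chain of the receptor for interleukin-7, the survival cytokine of naive and memory T cells and of innate lymphoid cells. Its gene lies on chromosome 15 (GRCm38, 9505788 to 9530176, minus strand). It stood at 4.18, 4.03 and 4.33 CPM in WT and at 44.1, 9.98 and 17.0 CPM in NM1 KO. The WT libraries were close together and every NM1 KO library was above them, replicate 1 most of all at 10.6 times the WT mean and replicate 2 at 2.39 times. Il7r rose by 2.50 ± 0.52 on the log2 scale (SE, n = 3 against 3; edgeR, adjusted p = 0.0472). The call was lost when library totals alone set the scale (adjusted p = 0.0530), with RLE size factors (0.0518), a replicate block (0.0748) or all genes kept regardless of counts (0.120), and without NM1 KO replicate 3 (0.0964) or WT replicate 1 (0.132), 2 (0.137) or 3 (0.163). It was kept, at a smaller log2 fold change of 1.71, without NM1 KO replicate 1 (adjusted p = 0.0398). The mean per kb of exon was 0.896 ± 0.0322 CPM in WT and 5.08 ± 3.86 CPM in NM1 KO (SD, n = 3).

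The other cytokine receptor genes did not pass the test. Il2rb, the beta chain shared by the receptors for interleukin-2 and interleukin-15, stood at 4.59, 4.95 and 5.21 CPM in WT and at 9.69, 3.85 and 14.6 CPM in NM1 KO (log2 fold change 0.93 ± 0.44, adjusted p = 0.252). Replicate 2 was below every WT library and the other two were above. Il2ra, the alpha chain that marks regulatory and activated T cells, stood at 11.4, 3.48 and 7.37 CPM in WT and at 4.60, 6.23 and 5.10 CPM in NM1 KO. Its groups overlapped, its log2 fold change was -0.48 ± 0.41 (adjusted p = 0.517), and it was among the 3 tested genes with a value below 0, with Cd247 and Ctla4.

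**Figure D2:**
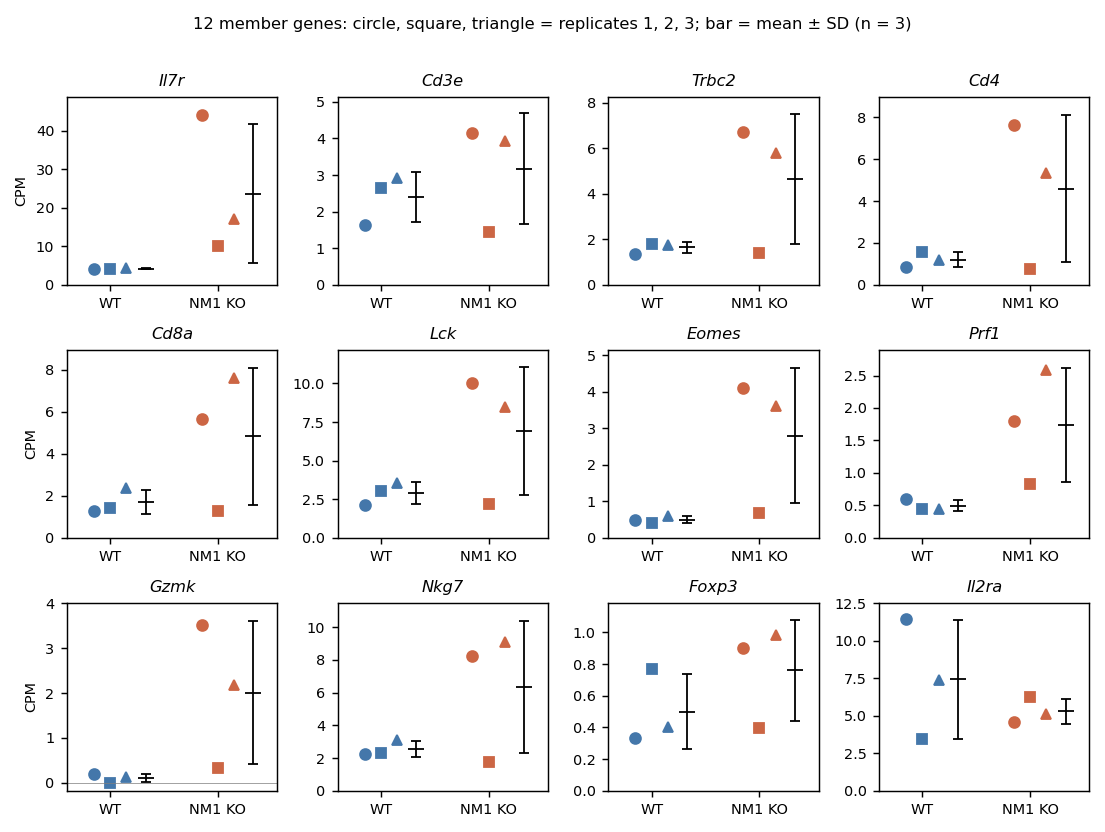
CPM of 12 of the genes in WT (blue) and NM1 KO (orange); circles, squares and triangles are replicates 1, 2 and 3, and the bar beside each group is its mean ± SD (n = 3). Il7r shows all NM1 KO libraries above WT, whereas Cd4, Cd8a, Trbc2, Lck and Nkg7 show replicate 2 at or below the WT level.

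None of the 6 genes of the T cell receptor complex passed the test, and the constant gene of the beta chain had the highest fold change among them. Cd3e, a CD3 chain and the standard marker of T cells, stood at 1.63, 2.65 and 2.93 CPM in WT and at 4.15, 1.43 and 3.94 CPM in NM1 KO (log2 fold change 0.40 ± 0.45, adjusted p = 0.635). Replicates 1 and 3 of NM1 KO were above WT and replicate 2 was below. Cd3d and Cd3g, its neighbours in one cluster on chromosome 9 with 11400 bases between Cd3d and Cd3e and 1354 between Cd3g and Cd3d, had log2 fold changes of 0.44 ± 0.39 and 0.46 ± 0.47. Trac, the alpha constant gene, had 0.65 ± 0.42 (adjusted p = 0.383).

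Trbc2, a beta constant gene, stood at 1.37, 1.79 and 1.76 CPM in WT and at 6.73, 1.40 and 5.79 CPM in NM1 KO. Replicates 1 and 3 were 4.10 and 3.53 times the WT mean, and replicate 2 was within the WT range (log2 fold change 1.50 ± 0.55, adjusted p = 0.162). Trbc2 has a near-identical copy in the genome, so its count can depend on how shared reads were treated. Per length, Trbc2 over Cd3e was 4.96, 3.98 and 3.55 in WT and 9.55, 5.77 and 8.68 in NM1 KO, with no overlap; this ratio, like the others to Cd3e and Trac below, was chosen with the levels already known and is a description. Trac over Cd3e overlapped between the groups, at 3.97, 4.15 and 2.21 in WT and 4.03, 4.83 and 3.60 in NM1 KO.

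Cd247, the zeta chain of the receptor, was flat at 8.47, 5.47 and 6.37 CPM in WT and 6.44, 6.10 and 6.41 CPM in NM1 KO. Its level is uncertain, since 56.4% of its exonic bases overlap Pou2f1 on the other strand and reads of the 2 strands may not have been separated in the counting. Variable segments of the receptor genes, which T cells join to the constant genes, were counted as a further readout. Of 108 alpha segments, 1, 4 and 2 had a count in WT and 18, 6 and 14 in NM1 KO. The 22 beta segments held 8, 11 and 20 counts in WT and 134, 18 and 76 in NM1 KO, so here too replicates 1 and 3 were high and replicate 2 was within the WT range. The 5 delta segments held 8, 67 and 40 counts in WT and 41, 18 and 29 in NM1 KO, all 3 within the WT range.

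The 6 co-receptor, kinase and adaptor genes split the NM1 KO libraries, summing to 10.1, 13.7 and 14.7 CPM in WT and to 38.4, 9.68 and 34.8 CPM in NM1 KO. All 6 were above every WT library in NM1 KO replicates 1 and 3, and none was in replicate 2. Cd4 stood at 0.850, 1.57 and 1.20 CPM in WT and at 7.66, 0.763 and 5.36 CPM in NM1 KO (log2 fold change 1.92 ± 0.75, adjusted p = 0.182). Macrophages and dendritic cells can also carry Cd4 RNA. The NM1 KO libraries were 6.35, 0.633 and 4.44 times the WT mean. Per length, Cd4 over Cd3e was 0.529, 0.597 and 0.416 in WT and 1.87, 0.538 and 1.38 in NM1 KO, so replicate 2 was within the WT range and the groups overlapped.

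Cd8a, a chain of the cytotoxic co-receptor, stood at 1.29, 1.44 and 2.36 CPM in WT and at 5.63, 1.25 and 7.62 CPM in NM1 KO (log2 fold change 1.51 ± 0.63, adjusted p = 0.204). Cd8b1, its partner chain 35.93 kb away on chromosome 6, stood at 1.29, 0.448 and 1.68 CPM in WT and at 3.67, 0.702 and 3.86 CPM in NM1 KO. Both chains were high in the same 2 libraries. Lck, the first kinase of the pathway, stood at 2.14, 3.04 and 3.57 CPM in WT and at 10.01, 2.20 and 8.49 CPM in NM1 KO (log2 fold change 1.24 ± 0.54, adjusted p = 0.217). Zap70 and Lat, the next kinase and the adaptor it phosphorylates, had log2 fold changes of 0.53 ± 0.39 and 0.55 ± 0.39.

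None of the 8 surface and costimulatory receptors passed the test, and all 8 were higher in NM1 KO replicate 1 than in replicate 3. Cd28, the main costimulatory receptor, stood at 2.40, 0.479 and 0.281 CPM in WT and at 6.21, 2.59 and 3.79 CPM in NM1 KO. All NM1 KO libraries were above WT, although replicate 2 exceeded WT replicate 1 by little (log2 fold change 1.99 ± 0.78, adjusted p = 0.181). Cd6, a receptor of T cell adhesion, stood at 1.29, 1.95 and 1.52 CPM in WT and at 5.63, 2.17 and 2.11 CPM in NM1 KO (1.05 ± 0.46, adjusted p = 0.217). Its groups did not overlap, and the gap came mostly from replicate 1.

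Cd2, an adhesion receptor of T and NK cells, was the most abundant of the 36 genes per kb of exon, at 7.97 ± 2.48 CPM in WT and 8.62 ± 4.78 CPM in NM1 KO (SD, n = 3). Its log2 fold change was 0.11 ± 0.42, and it turned to -0.39 without NM1 KO replicate 1. Ctla4, an inhibitory receptor strong in regulatory T cells, lay on the chromosome 1 cluster with Cd28 and Icos but stood at 2.96, 2.30 and 0.761 CPM in WT and at 2.57, 0.336 and 1.20 CPM in NM1 KO (-0.55 ± 0.76, adjusted p = 0.698). Its spread within each group was wider than the difference. Cd5, Cd27, Icos and Pdcd1 had log2 fold changes between 0.13 and 0.73, with adjusted p-values from 0.524 to 0.891.

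Among the transcription factors, Tcf7 and Eomes had all NM1 KO libraries above WT, and neither passed the test. Tcf7, the factor of naive and memory T cells and of early innate lymphoid cells, stood at 2.00, 3.64 and 3.01 CPM in WT and at 7.27, 3.82 and 6.34 CPM in NM1 KO (log2 fold change 1.01 ± 0.34, adjusted p = 0.132). Eomes, a T-box factor of memory CD8 T cells and NK cells, stood at 0.481, 0.416 and 0.601 CPM in WT and at 4.09, 0.671 and 3.61 CPM in NM1 KO (2.48 ± 0.67, adjusted p = 0.0850). In WT this was 13, 13 and 15 counts. Per length, Eomes over Cd3e was 0.290, 0.154 and 0.202 in WT and 0.967, 0.460 and 0.900 in NM1 KO, without overlap, which describes again the levels for which Eomes was picked.

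Tbx21, the related T-box factor of type 1 responses, stood at 0.666, 1.09 and 0.361 CPM in WT and at 1.32, 0.580 and 2.04 CPM in NM1 KO (0.88 ± 0.59, adjusted p = 0.408). Foxp3, the factor of regulatory T cells, stood at 0.333, 0.767 and 0.401 CPM in WT and at 0.901, 0.397 and 0.984 CPM in NM1 KO (0.58 ± 0.53, adjusted p = 0.545). Relative to Cd3e per length, Foxp3 was 0.182, 0.258 and 0.122 in WT and 0.193, 0.247 and 0.223 in NM1 KO, which overlap. Exons of other genes cover part of Foxp3 (18.6% with Flicr) and of Lef1 (13.7% with Gm43352), so both levels are uncertain. Lef1, a partner of Tcf7, had 2, 31 and 11 counts in WT and 29, 21 and 14 in NM1 KO.

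Among the cytotoxic genes, NM1 KO replicate 3 was mostly the highest library, and it exceeded replicate 1 in 4 of 5 granule genes and in 3 of 3 NK receptors. Replicate 1 exceeded replicate 3 in 6 of 6 genes of the receptor complex and in 8 of 8 surface receptors. The remaining roles were mixed. Replicate 1 was higher in 3 of 6 co-receptor, kinase and adaptor genes and in 3 of 5 transcription factors. It was higher in 1 of 3 cytokine receptors. No share over all genes was taken for these counts, which compare 2 single libraries. Prf1, the pore-forming perforin, stood at 0.592, 0.448 and 0.441 CPM in WT and at 1.80, 0.824 and 2.59 CPM in NM1 KO (log2 fold change 1.80 ± 0.49, adjusted p = 0.0850). Its groups did not overlap, and its replicate 2 was 1.67 times the WT mean. Gzma, a granzyme of NK and innate-like T cells, stood at 0.666, 0.863 and 0.922 CPM in WT and at 0.451, 1.95 and 3.13 CPM in NM1 KO (1.17 ± 0.65, adjusted p = 0.320). Unlike the other 4 granule genes, it was below every WT library in NM1 KO replicate 1.

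Gzmb, the main granzyme of activated killer cells, stood at 0.629, 0.448 and 0.721 CPM in WT and at 0.933, 0.366 and 1.93 CPM in NM1 KO (0.84 ± 0.62, adjusted p = 0.452). Nkg7, a granule membrane protein, stood at 2.26, 2.33 and 3.13 CPM in WT and at 8.27, 1.74 and 9.11 CPM in NM1 KO (1.31 ± 0.57, adjusted p = 0.222). Gzmk, a granzyme of memory-type CD8 T cells, had 5, 0 and 3 counts in WT and 109, 11 and 60 in NM1 KO, so all NM1 KO libraries were above WT. The count of 0 allows up to 3 counts, or 0.0959 CPM. Gzmk was too low for the filter. DESeq2 gave it an adjusted p of 0.000735 and edgeR without a filter 0.0974. Gzma and Gzmk lie 70.63 kb apart on chromosome 13, yet in NM1 KO replicate 1 Gzma was below and Gzmk above every WT library.

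The NK receptors were all above WT in NM1 KO replicates 1 and 3. Klrk1, which encodes the activating receptor NKG2D of NK and CD8 T cells, stood at 2.22, 2.94 and 3.13 CPM in WT and at 4.15, 2.96 and 8.64 CPM in NM1 KO (0.92 ± 0.42, adjusted p = 0.236). Klrd1, the CD94 chain encoded 11.55 kb away, reached 0.47 ± 0.49 on the same scale (adjusted p = 0.609). Ncr1, the receptor NKp46 that marks NK cells and group 1 innate lymphoid cells, had 5, 6 and 3 counts in WT and 24, 9 and 34 in NM1 KO. It was too low to test, and all NM1 KO libraries were above WT.

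**Figure D3:**
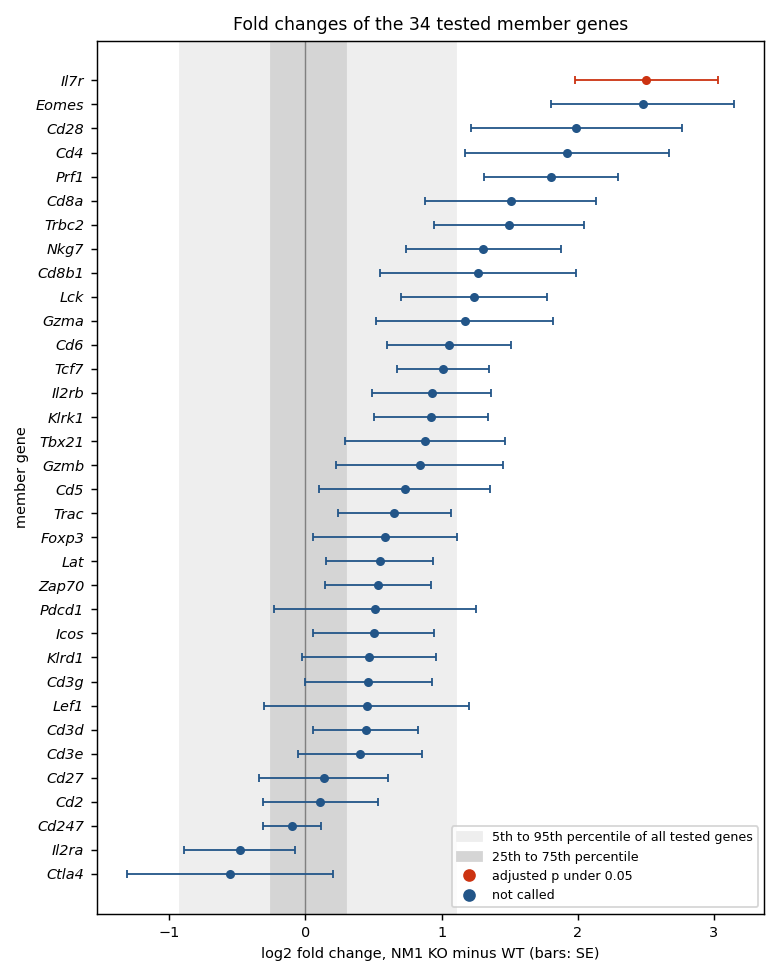
Log2 fold changes (NM1 KO minus WT) of the 34 tested genes with their standard errors; the grey bands hold the central 50% and 90% of all 15828 tested genes, from -0.25 to 0.30 and from -0.92 to 1.11. Il7r (red) is the called gene, and 31 of the 34 points lie above 0.

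Lists of further genes were drawn up with earlier results of these data known. Over all 15 lists, cell type markers included, 11 of 181 tested genes rose and 3 fell, beside 2.79% and 1.47% of all genes tested. Among T cell receptor signalling genes, 1 of 27 tested rose and 0 fell. That gene was Fyb, an adaptor of integrin activation that myeloid cells also express, at 13.8, 15.2 and 16.1 CPM in WT and 46.4, 24.1 and 36.1 CPM in NM1 KO (log2 fold change 1.24 ± 0.24, adjusted p = 0.0365). The call was lost with a replicate block (0.0723) and without NM1 KO replicate 1 (0.0686). Like every call in the 15 lists, it was also lost without NM1 KO replicate 3, WT replicate 2 or WT replicate 3. Without WT replicate 1, only the macrophage markers Adgre1 and Cd68 were still called, so losses given below are further ones. Prkcq, the protein kinase C of the T cell synapse, had 1.12 ± 0.30 (adjusted p = 0.0826) and Malt1, its downstream protease, 0.83 ± 0.22 (adjusted p = 0.0839), both with all NM1 KO libraries above WT.

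Of the NK receptor and granule genes, 19 of 32 could be tested and 2 rose. Slamf7, a receptor of NK cells that activated macrophages and plasma cells also carry, stood at 5.03, 2.46 and 5.09 CPM in WT and at 39.0, 18.4 and 21.7 CPM in NM1 KO (2.66 ± 0.39, adjusted p = 0.0241). Sh2d1b1, the adaptor EAT-2 of that receptor family, stood at 0.703, 0.575 and 0.721 CPM in WT and at 2.22, 2.01 and 1.97 CPM in NM1 KO (1.63 ± 0.30, adjusted p = 0.0350). Both were above every WT library in replicate 2 as well, and the call of Sh2d1b1 was lost with a replicate block (adjusted p = 0.0802) and without NM1 KO replicate 1 (0.0957). Klra3, a Ly49 receptor of NK cells with close paralogs, stood at 0.924, 0.192 and 0.281 CPM in WT and at 4.67, 0.763 and 4.19 CPM in NM1 KO (2.78 ± 0.84, adjusted p = 0.108). WT replicates 2 and 3 were below the filter's level of 0.3405 CPM. Klra3 was therefore tested only through the NM1 KO libraries, where it was high, so the filter favoured a higher value there. Klra9, an NK receptor singled out after its values were seen, stood at 0.333, 0.128 and 0.0401 CPM in WT and at 0.161, 0.153 and 2.30 CPM in NM1 KO, so only NM1 KO replicate 3 was above the WT range.

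Among homing receptors and cytokines, 10 of 21 could be tested, 0 rose and 1 fell, and Il17a was at 0 in all libraries. S1pr1, the receptor by which lymphocytes leave tissue and which endothelial cells express strongly, fell from 105, 101 and 84.4 CPM in WT to 55.5, 49.0 and 48.6 CPM in NM1 KO (-0.92 ± 0.12, adjusted p = 0.0186). Cxcr3, a homing receptor of type 1 T cells, had 1.01 ± 0.34 (adjusted p = 0.132) and Ccl5, a chemokine of memory and cytotoxic T cells, 1.57 ± 0.57 (adjusted p = 0.155), both with overlapping groups.

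For regulatory T cell genes of fat, 11 of 14 could be tested, 0 rose and 1 fell. Lrrc32, which anchors latent TGF-beta on regulatory T cells and on endothelial and other stromal cells, fell from 47.3, 64.2 and 44.9 CPM to 19.1, 28.8 and 29.7 CPM (-1.01 ± 0.22, adjusted p = 0.0491); the call was lost with a replicate block (0.0595), with the GC and length correction (0.0652) and without NM1 KO replicate 1 (0.0902). Tnfrsf18, the receptor GITR, had -1.04 ± 0.25 (adjusted p = 0.0648), and Nrp1, abundant in vessels, had 0.29 ± 0.18 (adjusted p = 0.370). In the list of chronic activation genes 1 of 12 rose. Havcr2, which encodes TIM-3 of exhausted T cells and of macrophages and dendritic cells, stood at 0.924, 0.831 and 0.842 CPM in WT and at 4.28, 2.69 and 2.37 CPM in NM1 KO (1.84 ± 0.34, adjusted p = 0.0342), a call lost with a replicate block (0.0659) and without NM1 KO replicate 1 (0.0840). In the same list Nr4a3, an early response gene, had -1.46 ± 0.46 (adjusted p = 0.118) and Entpd1, the ectonucleotidase CD39, had 0.46 ± 0.15 (adjusted p = 0.120).

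Gamma-delta T, NKT and innate lymphoid genes mostly had values in the opposite direction: 13 of 14 could be tested, 0 rose, 1 fell, and the median log2 fold change was -0.54. Sox13, a factor of gamma-delta T cells that other tissue cells also express, fell from 32.2, 31.3 and 37.4 CPM to 13.1, 18.7 and 16.5 CPM (-1.06 ± 0.16, adjusted p = 0.0246). Id2, a factor required by innate lymphoid cells, had 0.43 ± 0.13 (adjusted p = 0.0991). Trdc, the delta constant gene, was singled out after its values were seen; it stood at 1.85, 3.96 and 3.01 CPM in WT and at 2.09, 1.19 and 1.53 CPM in NM1 KO (-0.87 ± 0.38, adjusted p = 0.222). Per length, Trdc over Trac was 0.302, 0.380 and 0.490 in WT and 0.132, 0.181 and 0.114 in NM1 KO, without overlap. Without WT replicate 2, WT replicate 3 or NM1 KO replicate 3, none of the genes of these lists or of the cell type markers below was called, against 14 with all libraries; without WT replicate 1 there were 2 calls, and without NM1 KO replicate 1 or 2 there were 7 or 29.

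Markers of other immune cells moved with the libraries in different ways. The 14 B cell markers summed to 1319, 2289 and 1108 CPM in WT and to 3529, 907 and 1323 CPM in NM1 KO, so replicate 1 was above WT and replicate 3, in which the T and NK genes were also high, was within the WT range. None of the 14 was called. Ighd, the IgD heavy chain of naive B cells, reached 44.0 CPM in replicate 1, against 2.85 to 8.86 CPM in WT. Cd22 and Fcmr, an inhibitory receptor and the IgM receptor of B cells, reached 44.6 and 26.5 CPM there. Among lymph node markers, Glycam1, the ligand of high endothelial venules, was at 0 in all 6 libraries, Madcam1 was at most 0.0644 CPM, and of 5 tested genes none was called. The 8 lymph node genes summed to 36.3 to 63.7 CPM in WT and to 23.5 to 39.1 CPM in NM1 KO. Chst4, a sulfotransferase of such venules, had -1.52 ± 0.58 (adjusted p = 0.173), and Ccl19 and Fut7 had -1.15 ± 0.50 and -0.42 ± 0.43.

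Macrophage markers as a sum were high in all 3 NM1 KO libraries, replicate 2 included. Of the 12 genes, 10 had a log2 fold change above 0 (background 49.7%). They summed to 3603, 3058 and 4069 CPM in WT and to 6890, 5734 and 5818 CPM in NM1 KO over all 12 genes, and 4 rose. These were Adgre1, which encodes F4/80 (1.34 ± 0.16, adjusted p = 0.0182), the lysosomal protein Cd68 (1.52 ± 0.17, adjusted p = 0.0182), the lysozyme Lyz2 (1.13 ± 0.22, adjusted p = 0.0383) and the signalling adaptor Tyrobp, which NK cells also use (1.20 ± 0.17, adjusted p = 0.0227). The call of Lyz2 was lost with a replicate block (adjusted p = 0.0596) and without NM1 KO replicate 1 (0.0753). Of 10 pan-leukocyte genes 1 rose, the actin-bundling Lcp1 (1.29 ± 0.19, adjusted p = 0.0240), and Laptm5 and Ikzf1 had 0.67 ± 0.15 and 0.76 ± 0.18 (adjusted p = 0.0583 and 0.0609). The 10 pan-leukocyte genes together summed to 836, 947 and 802 CPM in WT and to 1787, 1158 and 1238 CPM in NM1 KO. Every NM1 KO library was thus above WT, replicate 2 included, and all 10 log2 fold changes were above 0 (background 49.7%). Ptprc, a member of that list which encodes CD45, was singled out after its values were seen and differed from the sum in replicate 2. It stood at 53.6, 57.2 and 52.0 CPM in WT and at 199, 45.1 and 118 CPM in NM1 KO, with replicates 1 and 3 above and replicate 2 below every WT library. Adipocyte markers held 0 calls of 10, with a median log2 fold change of -0.27. Among them Lep had 1.16 ± 0.31, Retn -1.24 ± 0.35 and Pnpla2 -0.66 ± 0.19 (adjusted p = 0.0805, 0.0937 and 0.0924). The part of B cells, macrophages or the share of fat cells in the lymphocyte values was not tested.

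**Figure D4:**
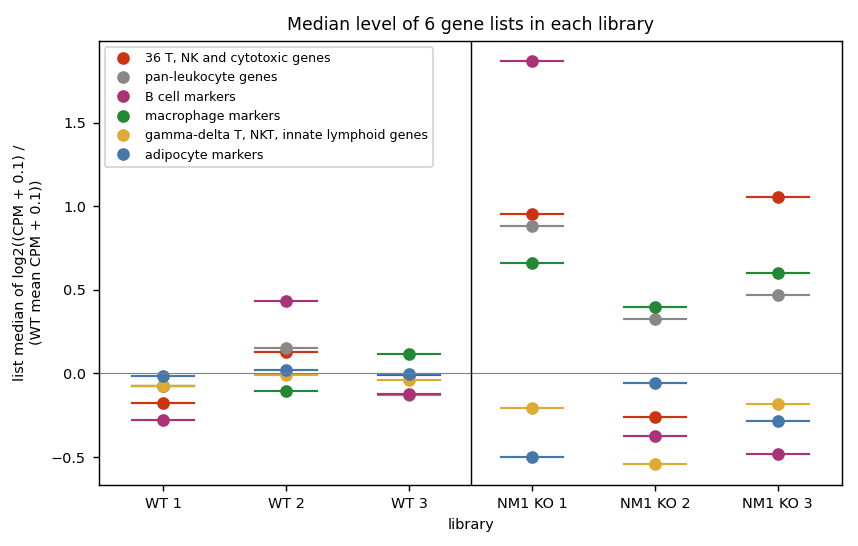
Median over each of 6 gene lists of the log2 ratio of CPM + 0.1 to the WT mean CPM + 0.1, in each library. The T, NK and cytotoxic genes (red) are at 0.95, -0.26 and 1.05 in NM1 KO replicates 1 to 3, B cell markers (purple) are at 1.87, -0.38 and -0.48, and macrophage markers (green) at 0.66, 0.40 and 0.60.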

How the data were processed

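Per the labels' protocols, RNA of visceral fat went into NEBNext Ultra II RNA libraries, which were read on a NextSeq instrument. Per the submitters' processing notes, reads were handled with HISAT2 2.0.4, HTSeq, SAMtools 0.1.19, Trimmomatic 0.36 and FastQC on GRCm38 (mm10); as for annotation and strand setting, not given in the sources used here. The authors deposited whole-number counts per Ensembl gene for each of the 6 libraries, without normalization. Each table held 46603 identifiers, 26398 had a count, and 46005 were matched to GENCODE M21; 0 entries named no gene.

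Genes were kept with edgeR's filterByExpr (about 10 counts, here 0.3405 CPM, in at least 3 libraries), scaled by TMM and tested with edgeR's quasi-likelihood test (edgeR 4.0.16, R 4.3.3), 3 WT against 3 NM1 KO, with Benjamini-Hochberg adjustment over all 15828 genes and a threshold of 0.05. The common biological coefficient of variation was 25.3%. The test was checked on simulated data. Alternatives were DESeq2 1.42.0, limma 3.58.1 with voom, RLE or total scaling, other filters, a replicate block, a GC and length correction, and leaving out each library. Levels per kb use exonic length. No library pair within a group agreed within sampling noise (chi-square per degree of freedom at least 35.93). A count of 0 allows up to 3 counts, 0.0916 to 0.120 CPM depending on the library, for counting error only.

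The members and the 15 context lists (225 genes, 223 matched, 181 tested, with some in more than 1 list) were chosen with earlier results of these data known. Any of the 36 members may be named; from each context list the called genes are named, with up to 3 tested genes of lowest p whose mean was 1 CPM or more, and other names are said to be chosen after their values were seen. A gene that this rule would name is not reported here. Motif letters were searched in the 250 bases before each RefSeq start.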

Additional observations from a re-analysis of the deposited data

How the results depend on the processing

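The median log2 fold change of the lymphocyte genes stayed above 0 in all 14 alternatives, from 0.46 (NM1 KO replicate 1 left out) to 1.18 (replicate 2 left out). The number of these genes called was 1; it was 0 with a replicate block, with RLE or total scaling, or with every gene kept regardless of counts, 8 with DESeq2, 3 with limma-voom, and 0 to 11 when 1 library was left out. Over all genes, 673 calls became 336 with the replicate block, 2163 with DESeq2, 1648 with limma-voom and 1 to 1654 when 1 library was left out. In the context lists, 14 calls became 48 with DESeq2, 29 with limma-voom and 0 to 29 when 1 library was left out. Leaving out 1 library turned the direction of Cd247 (-0.23 to 0.094, above 0 without WT replicate 1), Cd2 (-0.39 to 0.43, below 0 without NM1 KO replicate 1 or, at -0.11, WT replicate 3), Cd27 (-0.28 to 0.50, below 0 without NM1 KO replicate 1) and Lef1 (-0.052 to 1.44, below 0 without WT replicate 1), and the GC and length correction that of Nrp1 (-0.073); the cause was not tested. Same-numbered WT and NM1 KO libraries had correlations of -0.06, -0.0354 and 0.188 of their deviations from the group means. Libraries of different number had -0.0975 to 0.112. With 3 libraries per group, deviations from the mean are tied to each other, so these values cannot decide whether numbers mark pairs. The numbers were not taken as pairs because the labels do not call them so. Low counts limit precision: Eomes, for example, rests on 13 to 15 counts per WT library, and small differences in such genes are not detectable at this depth.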

Other observations

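Genes that act on T and NK cells from outside were also measured. Of 16 tested cytokines and chemokines with their signalling genes, 0 were called by edgeR's quasi-likelihood test. At an unadjusted p under 0.05, 2 were higher (background 13.0%) and 2 were lower (10.8%), both near the share over all genes. Il15, the cytokine that sustains NK and memory CD8 T cells, stood at 4.33, 3.87 and 4.93 CPM in WT and at 6.60, 6.59 and 6.74 CPM in NM1 KO (log2 fold change 0.60 ± 0.19, adjusted p = 0.117), with all NM1 KO libraries above WT, replicate 2 included. Cxcl16, the ligand of a T cell homing receptor, had 0.68 ± 0.20 (adjusted p = 0.107), and the kinase Jak3 of the shared cytokine receptor chain had -0.64 ± 0.15 (adjusted p = 0.0594). Il7, the ligand of the receptor encoded by Il7r, was singled out after its values were seen, and stood at 6.62, 7.67 and 6.65 CPM in WT and at 8.79, 3.97 and 9.55 CPM in NM1 KO (0.09 ± 0.33, adjusted p = 0.895).

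Among 11 tested ligands of NKG2D, CD28 family receptors and PD-1 and of related receptors, 1 rose. Cd48, the ligand of the NK receptor 2B4 and of CD2, and itself a leukocyte protein, had 0.70 ± 0.15 (adjusted p = 0.0463), a call lost with RLE size factors (0.0517), total scaling (0.0580), a replicate block (0.0596), the GC and length correction (0.0832) and without NM1 KO replicate 1 (0.121). Ulbp1, a stress-induced ligand of NKG2D, stood at 0.407, 0.575 and 0.0801 CPM in WT and at 4.60, 1.37 and 2.81 CPM in NM1 KO (3.01 ± 0.70, adjusted p = 0.0609), and Cd274, which encodes PD-L1, had 0.83 ± 0.26 (adjusted p = 0.119). Ulbp1 was low in WT, and its WT replicate 3 was below the filter's level of 0.3405 CPM. It could be tested only with at least 1 NM1 KO library at that level. Of 10 dendritic cell markers 1 rose, the integrin Itgax, which fat macrophages also carry, from 25.8, 12.8 and 7.53 CPM to 171, 108 and 61.7 CPM (2.88 ± 0.53, adjusted p = 0.0350), a call lost without a filter (0.135) and without NM1 KO replicate 1 (0.0677). The list as a whole did not share that direction: 4 of 10 values were above 0 (background 49.7%), and the median log2 fold change was -0.19. At an unadjusted p under 0.05 there were 3 higher (13.0%) and 1 lower (10.8%). In the same list the chemokine receptors Xcr1 and Ccr7 had 1.33 ± 0.35 and 1.87 ± 0.68 (adjusted p = 0.0768 and 0.155). Of 8 tested neutrophil and mast cell markers 0 were called; Retnlg and S100a9, neutrophil genes, had -3.67 ± 0.90 and -2.85 ± 0.96 (adjusted p = 0.0685 and 0.134), with WT replicate 2 far above the other libraries at 12.1 and 8.41 CPM, and the mast cell protease Mcpt4 had 0.35 ± 0.18 (adjusted p = 0.288).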
